A study of Mus musculus with 6 samples.

Results

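The immunity-related GTPases are described here in ADC106 cells, a mouse angiosarcoma line, after transfection of an miR-497 mimic or an NC mimic. The group was chosen by gene symbol and holds 7 of the 55401 genes in the count table: Iigp1, Irgm1, Irgm2, Igtp, Tgtp1, Tgtp2 and Gvin1. The choice was made with the difference between the mimics known, so the values of these genes between the groups are given as a description without a test. Of the 7, 5 passed the filter on low counts and 2, Tgtp1 and Tgtp2, had 0 counts in every library. Both groups were the same cell line, whose genotype was labelled WT for the NC cells and miR-497 overexpression for the others. Each received 12.5 nM of its mimic, a short synthetic RNA duplex, and RNA was taken on day 3. Each group had 3 poly(A) libraries, and nothing in the labels says whether they came from separate cultures, so the spread may be technical. The data come from 1 cell line, and untransfected cells were not analysed here.

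Immunity-related GTPases are interferon-induced, membrane-binding enzymes that protect mouse cells from parasites and bacteria living in vacuoles. The effector proteins, among them Iigp1 (Irga6) and the Tgtp proteins (Irgb6), collect on the vacuole and help to break it open. Regulators of the Irgm type (Irgm1, Irgm2 and Igtp, also named Irgm3) sit on the cell's own membranes and hold the effectors in an inactive state there. Gvin1 is a very large interferon-inducible GTPase of a neighbouring family. The genes answer to interferon through factors that bind GAS and ISRE elements.

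Promoter windows are shown because the letters make the likeness of these genes visible. RefSeq promoters (GRCm38.p6, 250 bases before to 50 after the start) were given for 5 of the 7 genes; Iigp1 and Gvin1 had none in that table. Each of the 5 held the ISRE core GAAANNGAAA (or TTTCNNTTTC, its other strand), which was found in 3.44% of all 32851 promoters of that length. The GAS letters TTCNNNGAA, the same on both strands, were found in 8.3% of all promoters and in 4 of these 5, all but Irgm1. In the windows below, each on its gene's strand, 5′ to 3′, capitals mark matches to either motif.
Irgm1: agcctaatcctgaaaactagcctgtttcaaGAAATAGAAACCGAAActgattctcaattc
Irgm2: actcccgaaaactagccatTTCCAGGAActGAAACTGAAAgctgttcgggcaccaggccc
Igtp: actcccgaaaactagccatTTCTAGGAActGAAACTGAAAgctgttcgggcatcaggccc
Tgtp1: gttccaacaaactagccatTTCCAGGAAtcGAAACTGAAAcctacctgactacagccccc
Tgtp2: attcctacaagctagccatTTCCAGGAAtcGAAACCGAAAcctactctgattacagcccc
The windows lie at chr11:48871421-48871480 (minus strand) for Irgm1, chr11:58214883-58214942 (plus) for Irgm2, chr11:58199492-58199551 (plus) for Igtp, chr11:48992294-48992353 (minus) for Tgtp1 and chr11:49064253-49064312 (minus) for Tgtp2. Without gaps, the Irgm2 and Igtp windows had the same base at 58 of 60 positions, and those of Tgtp1 and Tgtp2 at 46. In these 4 genes the GAS letters stood directly upstream of the ISRE core. The core began 34 bases before the RefSeq start in Igtp, 64 in Irgm2, 70 in Tgtp2 and 77 in Tgtp1. Irgm1 held 2 overlapping ISRE matches, at 30 and 24 bases before its RefSeq start. Not all of these starts are those of the GENCODE M21 gene spans given below. The windows of Irgm1, Irgm2 and Tgtp1 lie inside those spans. For Irgm2 the span begins at chr11:58199618, just downstream of the Igtp window. A match is a description of letters and not a bound site. Among tested related genes with a promoter sequence, Gm12185 and Gm12250 held both motifs, with log2 fold changes of -0.25 and -3.91. Gm1966 held only the ISRE core (0.77, not called), and Gm5431 and Irgq held neither (-2.24, and 0.13, not called). Whether the motifs bear on any difference between the mimics was not tested.

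Sites for the mimic's guide strand are shown next, since the mimic can act on a transcript through its seed. The mature strand is given with its seed, bases 2 to 8, in capitals, and then the only match among the 3′ UTRs of the 7 genes.
mmu-miR-497a-5p: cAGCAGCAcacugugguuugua
Irgm2 site: atggcatagaTGCTGCTccgcaatgtca
miR-195a-5p, miR-16-5p and miR-15a-5p have the same seed. The Irgm2 match (capitals, TGCTGCT) is a 7mer-m8 that begins at base 1754 of a 3′ UTR of 2110 bases, in the last of 3 exons, and the window lies at chr11:58222416-58222443 on the plus strand of GRCm38. No 7mer or 8mer was found in the 3′ UTRs of Iigp1 (1581 bases), Irgm1 (556), Igtp (315), Tgtp1 and Tgtp2 (1302 each) or Gvin1 (1421). Among the 12859 tested genes with a 3′ UTR, 25.1% held such a site. The coding sequences of Iigp1, Irgm1 and Irgm2 held 1 match each and that of Gvin1 held 3.

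The 6 libraries held 25777676 to 36159499 counts, and no pair agreed within sampling noise (chi-square per degree of freedom of at least 8.16). All 10 endothelial markers were tested, and their sum ranged from 9418 to 10108 CPM (counts scaled to a common library size) in NC and from 9214 to 9682 CPM in miR-497 libraries. Single markers went both ways, with 2 lower and 7 higher (edgeR adjusted p under 0.05, against 26.0% and 23.8% of all tested genes). The near-equal sums therefore do not mean unchanged markers. Of 10 immune markers, 7 stayed below 1 CPM in every library. Itgam and Cd3e were listed at 0, where 99.1% of the exon bases of Itgam lie inside another gene. The summed immune markers ranged from 12 to 13.2 CPM in NC and from 18.1 to 23.1 CPM in miR-497 libraries, and without Cd68 from 3.59 to 5.22 and from 3.21 to 4.18. The 7 fibroblast markers summed to 307 to 326 and 451 to 547 CPM, with Lum at 0. Of these, 5 were tested, 2 were lower and 2 higher by the same threshold. Mitochondrially encoded genes took 2.03% to 2.15% and 2.94% to 3.77% of the counts. The part of these differences in the results below was not tested. As a check of the labels, 8 of 8 listed targets of the miR-16 family were lower with miR-497 (edgeR adjusted p under 0.05), as were 26.0% of all 14661 genes tested. The target list was chosen with earlier results of these data known, so the check is a weak one.

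For each of the 5 members that passed the filter, all 3 miR-497 libraries lay below all 3 NC libraries, as they did for 29.6% of the 14661 genes tested. Nothing is read from the members' count, because they were chosen on this contrast. The median log2 fold change was -2.08 over the 5 members and -0.02 over all tested genes. In bulk RNA, fewer cells that express a gene and less RNA per cell cannot be told apart.

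**Figure D1:**
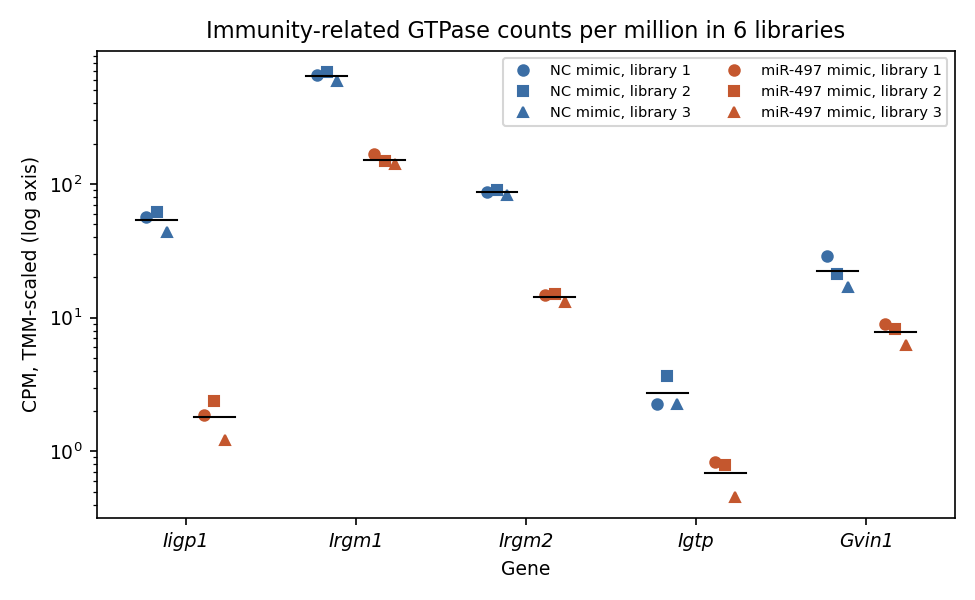
CPM of the 5 tested genes in each library on a log axis; blue marks are NC and orange marks miR-497 libraries, shapes give the replicate number and lines the group means. No gene's groups overlap, and Iigp1 has the widest gap, from a mean of 53.9 to 1.82 CPM.

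Iigp1 (ENSMUSG00000054072, chr18:60376027-60392634, plus strand) was the only effector among the 7 genes with counts. It had 56.8, 61.1 and 43.9 CPM in NC libraries 1 to 3, and 1.87, 2.36 and 1.21 CPM in miR-497 libraries 1 to 3. These came from 1235 to 2230 reads in NC and from only 37 to 75 reads in miR-497 libraries. NC library 3 was lowest of its group, as was miR-497 library 3. The means were 53.9 ± 8.96 and 1.82 ± 0.575 CPM (SD, n = 3), so that 3.37% of the NC level was left, a log2 fold change of -4.89 (SE 0.169).

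Irgm1 (ENSMUSG00000046879, chr11:48861968-48871683, minus strand), a regulator needed by mice to resist many intracellular infections, was the most abundant member. Its levels were 648, 686 and 585 CPM in NC libraries and 166, 148 and 141 CPM in miR-497 libraries. The lowest NC library lay well above the highest miR-497 library. With means of 639 ± 51.3 and 152 ± 13.2 CPM (SD, n = 3), 23.7% of the NC level was left, and the log2 fold change was -2.08 (SE 0.072).

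Irgm2 (ENSMUSG00000069874, chr11:58199618-58222782, plus strand), also a regulator and the member with the 3′ UTR site shown above, had 86.4, 90.1 and 83.2 CPM in NC and 14.8, 14.9 and 13.1 CPM in miR-497 libraries. Its libraries varied least within a group among the members, with means of 86.5 ± 3.45 and 14.3 ± 1.03 CPM (SD, n = 3). The level left was 16.5% and the log2 fold change -2.60 (SE 0.0764), between those of Irgm1 and Iigp1. Whether the site plays a part in this fall was not tested.

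Igtp (ENSMUSG00000078853, chr11:58199556-58207591, plus strand), another Irgm-type regulator, was counted at a low level. Its libraries held 75, 134 and 64 reads in NC and 21, 25 and 14 in miR-497, or 2.26, 3.67 and 2.27 CPM against 0.836, 0.787 and 0.459 CPM. NC library 2 stood above the other NC libraries. The log2 fold change was -1.98 with an SE of 0.346, the widest among the members. All but 62 of the exon bases of Igtp (96.9%) lie inside the span of Irgm2 on the same strand, so its level is not comparable with the others.

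Gvin1 (ENSMUSG00000045868, chr7:106156556-106215326, minus strand) had 28.7, 21.1 and 16.8 CPM in NC and 8.91, 8.22 and 6.2 CPM in miR-497 libraries. The spread within NC was wide, and the lowest NC library was still above the highest miR-497 library. The means of 22.2 ± 6.02 and 7.78 ± 1.41 CPM (SD, n = 3) gave the smallest fall of the members, with 35.1% left and a log2 fold change of -1.52 (SE 0.169). Of the 100-base words in its transcripts, 97.8% also occur in transcripts of other genes, foremost Gm4070, so the split of its reads among copies is uncertain.

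Tgtp1 (ENSMUSG00000078922, chr11:48985327-48994172, minus strand) and Tgtp2 (ENSMUSG00000078921, chr11:49057194-49064206, minus strand) are near-identical copies. Their 0 counts allow up to 3 counts per library, or 0.0822 to 0.119 CPM, for counting error only. The zeros cannot be read as a lack of transcript. Shared words made up 73.1% of the 100-base words of Tgtp1 and 76.8% of those of Tgtp2. In addition, all exon bases of both genes lie inside the span of Olfr56 on the opposite strand (chr11:48978889-49135387). All 5 protein-coding genes inside that span, which are Tgtp1, Tgtp2, 9930111J21Rik2, Ifi47 and Olfr1396, had 0 counts in all 6 libraries. Ifi47 (Irgd) is another effector of the family, named here after its value was seen, and only 0.842% of its 100-base words are shared.

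The same held across the table. Of 684 protein-coding genes whose exon bases all lie inside another gene's span without sharing an exon base with any gene, 92% were listed at 0, against 24.3% of 14031 protein-coding genes with no exon base inside another span. Map1lc3b, a widely expressed autophagy gene, was among the zeros, with all of its exon bases inside the spans of other genes. How the counting treated reads inside 2 genes was not given in the sources used here. The effect on Tgtp1, Tgtp2, Ifi47 and Igtp was not tested on reads.

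**Figure D2:**
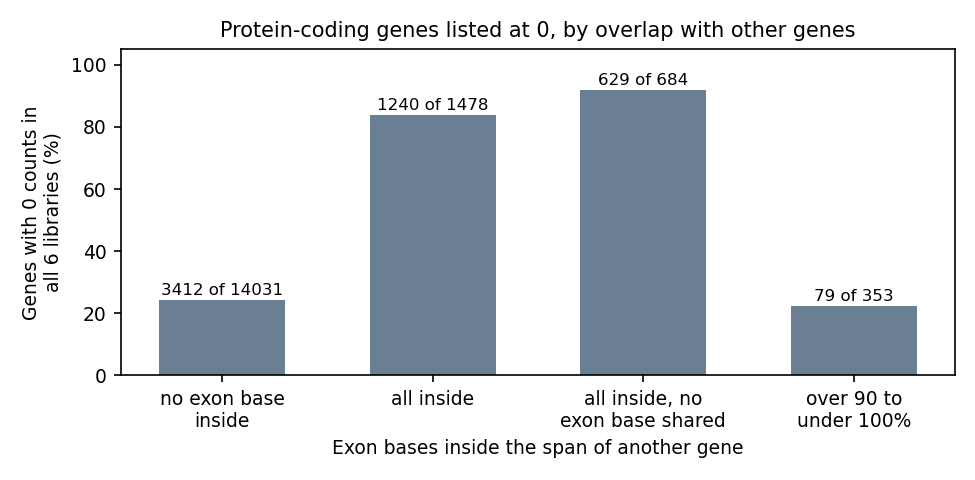
Percent of protein-coding genes with 0 counts in all 6 libraries, by how much of their exon sequence lies inside the span of another gene (GENCODE M21), with the number of genes above each bar. Genes lying wholly inside another are at 0 in 83.9% of cases, or 92% where no exon base is shared, while those just short of wholly inside are at 0 in 22.4%; Tgtp1 is in the second class, Tgtp2 in the second and the third, and Igtp in the last.

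Levels of different genes were compared per length, as FPKM (CPM divided by the exon length in kilobases in GENCODE M21). Whether reads in introns were counted is not given in the sources used here, and exon length is the right scale only if they were not. In NC libraries the order was Irgm1 at 110 ± 8.83, Irgm2 at 23.4 ± 0.936, Iigp1 at 9.26 ± 1.54, Gvin1 at 2.46 ± 0.669 and Igtp at 1.35 ± 0.40 FPKM (SD, n = 3). No neighbours in this order overlapped, although Gvin1 and Igtp came close, at 1.86 and 1.82 FPKM. Irgm1 stood above 97.5% of all tested genes and Iigp1 above 65.3%. In miR-497 libraries Irgm1 was still first at 26.1 ± 2.28 FPKM, above 86.4% of tested genes, and Irgm2 second at 3.86 ± 0.28 FPKM. Iigp1 was last, below Gvin1 and Igtp, at 0.312 ± 0.0988 FPKM, where its libraries overlapped those of Igtp (0.343 ± 0.101 FPKM). If only the 62 exon bases of Igtp outside Irgm2 are counted as its length, a setting chosen after the data were seen, its NC level becomes 44.1 FPKM and it ranks second, so its place is not settled. Dividing by the whole gene span, introns included, was also tried after the data were seen, and it gave the same order in NC libraries. In miR-497 libraries it placed Iigp1, at a mean of 0.109, above Igtp, at 0.0864.

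The makeup of the group differed between the mimics. Irgm1 made up 75.1% ± 0.22 of the summed FPKM of the 5 genes in NC and 82.9% ± 1.19 in miR-497 libraries (SD, n = 3). These shares depend on the lengths used. Counted over exon bases outside other genes, where Igtp is high, the Irgm1 share was 58% ± 2.85 and 61.8% ± 4.56, and over whole gene spans it was 89.5% ± 0.265 and 94.3% ± 0.551. The share of Iigp1 over all exon bases was 6.29% ± 0.566 and 0.986% ± 0.294, and 4.85% ± 0.418 and 0.726% ± 0.183 over the bases outside other genes. Relative to Irgm1 in the same library, Iigp1 stood at 8.75%, 8.88% and 7.49% in NC and at 1.12%, 1.6% and 0.859% in miR-497 libraries. Irgm2 stood at 21%, 20.7% and 22.4%, and at 14%, 15.9% and 14.6%. Both stood lower relative to Irgm1 in every miR-497 library than in any NC library. Gvin1 was at 2.86%, 1.98% and 1.85% of Irgm1 in NC and at 3.45%, 3.59% and 2.84% in miR-497 libraries, where the groups overlap. Igtp overlapped as well, at 1% to 1.54% and 0.936% to 1.53%.

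**Figure D3:**
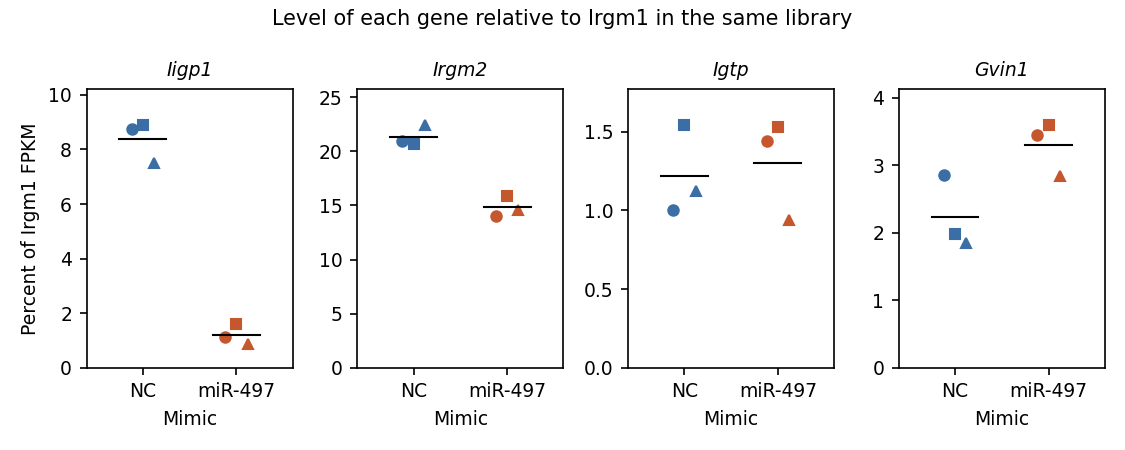
FPKM of 4 genes as a percent of Irgm1 FPKM in the same library; blue marks are NC and orange marks miR-497 libraries, shapes give the replicate number and lines the means, and each panel has its own axis from 0. Iigp1 drops from a mean of 8.37% to 1.19% and Irgm2 from 21.4% to 14.8%, while the groups overlap for Igtp and Gvin1.

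Library 3 was mostly the lowest of its group for the members. In miR-497 libraries this held for all 5, and the share over all tested genes was not computed for that group. NC library 3 was the lowest NC library for 4 of the 5 members, and it was the lowest for 32.6% of the 10334 tested genes with a mean log2 CPM of at least 2. Igtp, the exception, was lowest in library 1, at 2.26 against 2.27 CPM. The mean of the 5 members lay at 0.06, 0.15 and -0.21 log2 units from its group mean in NC libraries 1 to 3, and at 0.16, 0.15 and -0.31 in miR-497 libraries 1 to 3. The median SD of a member's log2 CPM within NC was 0.25, against 0.08 for those 10334 genes. Igtp, at means of 2.74 CPM in NC and 0.694 CPM in miR-497 libraries, lies below that cutoff. The spreads are therefore not compared at like levels.

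Related genes from a list were examined next. This list and those below were chosen with earlier results of these data known. Their counts and adjusted p-values are therefore descriptions and not independent tests. Of 15 listed symbols of the Irg and Gvin families, 13 were in the table, 8 were tested, 6 were lower and none higher (edgeR quasi-likelihood test, Benjamini-Hochberg adjusted p under 0.05; 26.0% of all tested genes were lower). The median log2 fold change was -1.28. The largest falls were in Gm4951 (Ifgga2), from 6.72 ± 1.94 to 0.332 ± 0.0882 CPM (SD, n = 3; -4.33 log2 units, SE 0.313, adjusted p = 7.8e-09 in edgeR), and in Gm12250 (Irgb10), an effector, from 7.83 ± 0.65 to 0.521 ± 0.168 CPM (-3.91, SE 0.255, edgeR adjusted p = 2.2e-09). No exon base of either lies inside another gene. Their log2 fold changes lay closer to that of Iigp1 than to those of the 3 Irgm-type genes. Those of the other tested related genes, among them Gm5431 (-2.24) and Gm12185 (-0.25), did not.

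Gm5431 (Irgb9b8) changed by -2.24 log2 units (SE 0.208, edgeR adjusted p = 1.4e-07), and 20.6% of its 100-base words are shared. Gm4070, the near copy of Gvin1, changed by -1.79 (SE 0.159, edgeR adjusted p = 8.5e-08), close to Gvin1 itself. Of its 100-base words 95.6% are shared, foremost with Gvin1, and 30.7% of its exon bases lie inside other genes' spans. The split of reads between these copies is uncertain, so the values of Gm4070 and Gvin1 may not be separate results. Gm8995 fell by 0.77 (SE 0.0712, edgeR adjusted p = 1.3e-07). Gm12185 (Irgb2b1) was lower by a small margin (-0.25, SE 0.0897, edgeR adjusted p = 0.028), and its groups overlapped; it was not called with upper-quartile scaling, with DESeq2, without NC library 1 or 2, or without miR-497 library 2 or 3. Irgq, a distant relative, did not pass (0.13, SE 0.0779, edgeR adjusted p = 0.19), nor did Gm1966, at 5 to 17 counts per library. The 3′ UTR of Irgq held 4 matches for miR-497-5p, of which those at bases 953 and 956 overlap each other. Their effect was not tested. The filter on low counts removed Gm4841, which had 8, 10 and 11 counts in NC and 0 in each miR-497 library, at least 2.91-fold lower against a floor of 3 counts per library. With no filter it was called lower (edgeR adjusted p = 0.0012), as it was with DESeq2 (adjusted p = 0.002).

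**Figure D4:**
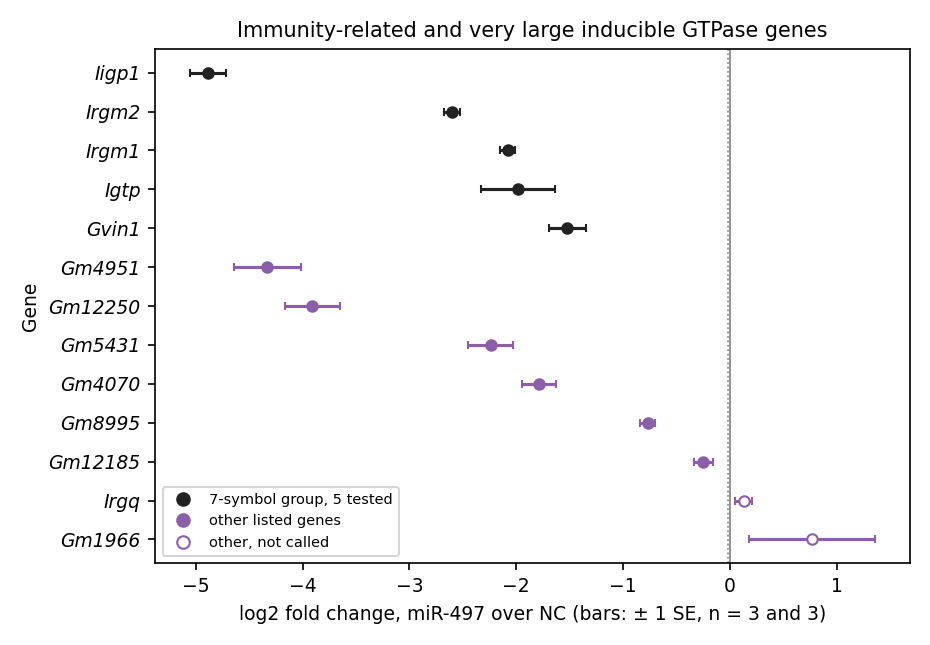
Log2 fold change, miR-497 over NC, for the 5 tested members (black) and 8 related genes (purple; open marks did not pass the edgeR threshold); bars are 1 SE either way and the dotted line is the median of all tested genes. Iigp1, Gm4951 and Gm12250 lie between -4.89 and -3.91, and Irgm1, Irgm2 and Igtp between -2.60 and -1.98, with Gm5431 among them at -2.24.

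The listed interferon signalling genes, some of them inducible themselves, did not move as one. Of 16 listed interferon signalling genes, 13 were tested, 7 were lower and 4 higher (edgeR adjusted p under 0.05; 26.0% of all tested genes were lower and 23.8% higher). Among the factors that carry the signal, Stat2 was lower, from 161 ± 11.8 to 40.5 ± 1.45 CPM (SD, n = 3; -1.99 log2 units, SE 0.0646, edgeR adjusted p = 5.1e-13), as was Irf9 (-1.21, SE 0.0798, edgeR adjusted p = 2.5e-09). Irf1, a direct activator of Irg genes, fell less, from 58.8 ± 4.32 to 40.5 ± 3.54 CPM (-0.54, SE 0.0793, edgeR adjusted p = 2.5e-05). Usp18, an inducible brake on interferon receptors, had the largest fall of the list (-3.51, SE 0.114, edgeR adjusted p = 5.1e-13). Socs1, an inhibitor of the Jak kinases named after its value was seen, was lower by a smaller margin (-0.55, SE 0.194, edgeR adjusted p = 0.027), its groups overlapped, and it was not called without NC library 2 or miR-497 library 2 or 3.

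Among the kinases, Jak2 was lower (-0.98, SE 0.0518, edgeR adjusted p = 1.8e-10) and Jak1 did not pass (-0.05, SE 0.0545, edgeR adjusted p = 0.50). The 4 genes that were higher were the receptor chains Ifngr1, Ifngr2, Ifnar1 and Ifnar2, with log2 fold changes of 0.30, 0.36, 0.18 and 0.37; Ifngr1 and Ifnar2 were named after their values were seen. Ifnar1 was not called without NC library 1 or 2 or miR-497 library 2. Other genes' spans hold 81.8% of the exon bases of Usp18 and 73.6% of those of Ifnar2. The interferon genes on the list, Ifng and Ifnb1, were near the floor, and other interferon genes were not examined. Ifng had 0 counts in all libraries. Ifnb1 had 9, 26 and 4 counts in NC and 0, 7 and 0 in miR-497 libraries, and the filter on low counts removed it. With no filter it was called lower (-2.24 log2 units, SE 0.908, edgeR adjusted p = 0.044), and with DESeq2 it did not pass (-2.30, adjusted p = 0.13). Irf8 was also listed at 0, with all of its exon bases inside another gene.

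Partners that help to load the GTPases onto vacuoles were mostly higher. Of 13 listed genes for Atg8-type conjugation and ubiquitin tagging, 12 were tested, 8 were higher and 1 lower (edgeR adjusted p under 0.05; 23.8% and 26.0% of all tested genes). Gabarap, an Atg8-type protein, rose from 106 ± 3.43 to 276 ± 15.3 CPM (SD, n = 3; 1.38 log2 units, SE 0.0559, edgeR adjusted p = 8.2e-12) and Gabarapl1 rose by 0.69 (SE 0.056, edgeR adjusted p = 3.2e-08). Sqstm1, a ubiquitin-binding autophagy receptor, rose by 0.50 (SE 0.0585, edgeR adjusted p = 1.9e-06). Of the conjugation genes, Atg12 rose by 0.31 and Atg16l1 by 0.16 (edgeR adjusted p = 0.00024 and 0.017), and Atg7 did not pass (0.11, SE 0.0614, edgeR adjusted p = 0.16) except with upper-quartile scaling, where it rose by 0.15. Atg16l1 was not called without NC library 1 or 2 or miR-497 library 3, with no filter or with the replicate block. The lower gene was Trim21, an interferon-inducible ubiquitin ligase, at 35.5 ± 2.31 and 7.37 ± 1.53 CPM (-2.26, SE 0.119, edgeR adjusted p = 1.8e-10).

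**Figure D5:**
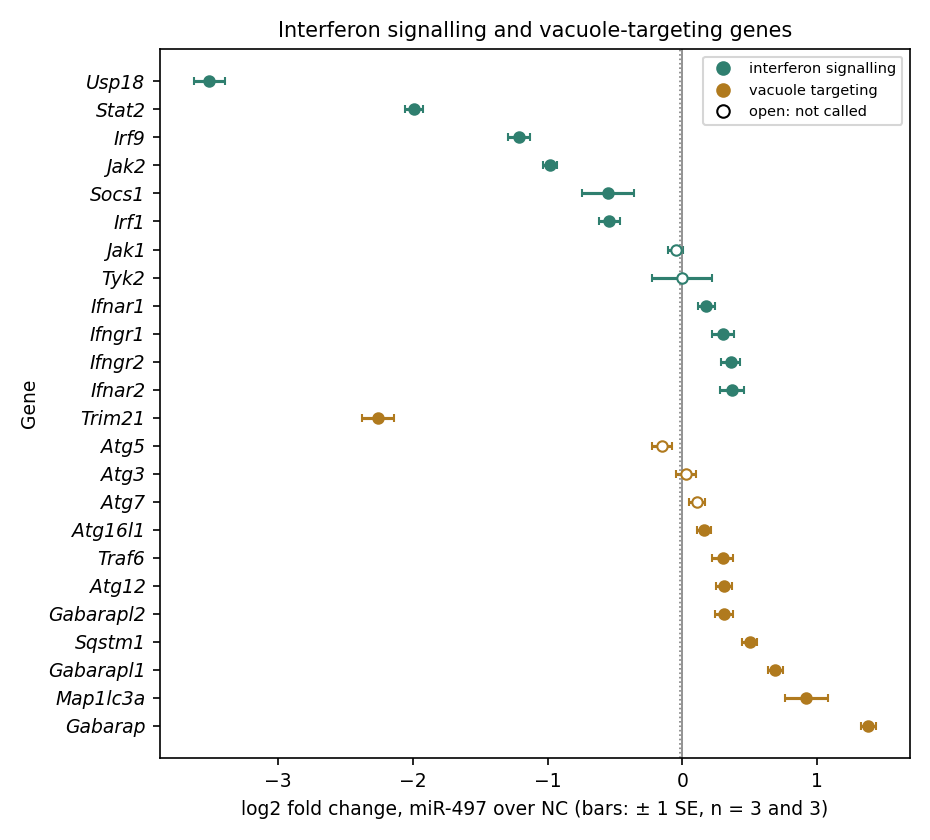
Log2 fold change, miR-497 over NC, for 12 interferon signalling genes (green) and 12 vacuole-targeting genes (ochre); bars are 1 SE either way, open marks did not pass the edgeR threshold and the dotted line is the median of all tested genes. Usp18, Stat2 and Trim21 lie near or below -2, and Gabarap is farthest to the right at 1.38.

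Guanylate-binding proteins, which act with these GTPases on vacuoles, were lower for 6 of the 8 tested of 11 listed and higher for none (edgeR adjusted p under 0.05; 26.0% of all tested genes were lower), with a median log2 fold change of -2.01. Gbp3 had the largest fall, from 194 ± 20.6 to 22.1 ± 2.23 CPM (SD, n = 3; -3.14, SE 0.0859, edgeR adjusted p = 8.3e-14). Gbp5, Gbp2 and Gbp7 fell as well, with log2 fold changes of -3.05, -2.66 and -2.15 (edgeR adjusted p = 5.4e-08, 7e-13 and 7.2e-14). Gbp6 fell by 1.86 (SE 0.521, edgeR adjusted p = 0.0069) from a mean of only 0.707 CPM, and it was not called without NC library 2. Other genes' spans hold 99.9% of the exon bases of Gbp6 and 99.4% of those of Gbp4, which was not called. Gbp9 and Gbp10 were listed at 0, with 100% of their exon bases inside other genes' spans. Low counts of these genes therefore cannot be read as low expression. Genes that merely lie near the members were mixed. Of 27 protein-coding genes within 200000 bases of a member that belong to neither family, 19 were tested, 7 were lower and 3 higher (edgeR adjusted p under 0.05; 26.0% and 23.8% of all tested genes), and their median log2 fold change was -0.18. Only 1 of them, Gm12248, was called lower by at least 2-fold, against 5.19% of all tested genes.

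Genes outside these lists were ranked by how closely they followed the mean profile of the 5 members over the 6 libraries, as the root mean square difference of log2 CPM relative to each gene's NC mean. Of 10272 genes compared, the closest were Mov10 (0.13), Plscr2 (0.14), Ccl5 (0.16), Isg20 (0.18) and Chac1 (0.20), where the median gene was at 1.83. The members themselves lay between 0.12 and 1.63 from their own mean. For Mov10, an RNA helicase, the mean went from 144 ± 7.15 to 24.2 ± 2.89 CPM (SD, n = 3). The 2 groups dominate this measure, so it mostly ranks genes with a fall of the same size.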

How the data were processed

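Poly(A) RNA libraries of ADC106 cells, 3 with an NC and 3 with an miR-497 mimic, were analysed from the raw counts of reads per gene that the authors deposited, grouped by the sample titles. The submitters' processing notes name STAR 2.5.4b, featureCounts, Subread 1.6.1, edgeR 3.32.1 and GRCm38, without roles. The annotation release, strand setting and treatment of multiply aligned reads are not given in the sources used here. Symbols, exon lengths and gene spans came from GENCODE M21 (GRCm38), which matched 55141 of 55401 identifiers, and 3′ UTRs from the transcript with the longest coding sequence of each gene.

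The counts were tested with edgeR 4.0.16 in R 4.3.3 (filterByExpr with a minimum count of 10 and total of 15, TMM, quasi-likelihood F-test on group, 2-sided, Benjamini-Hochberg over 14661 genes, threshold 0.05). CPM refers to TMM-scaled totals of tested genes. SE is the log2 fold change divided by the square root of F. On counts simulated for this comparison with 14462 genes tested, 96% of 200 changed genes were recovered and 4% of calls were false. The simulation gave all genes the same dispersion and changed only those 200, whereas 7307 genes were called in the data. These rates therefore need not hold for the data.

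The members and lists were chosen with earlier results of these data known. Named genes were all members, listed genes with a change of at least 2-fold or otherwise up to 5 of the highest CPM, and the 5 closest in profile (mean log2 CPM of at least 2, prior count 2). The rule was applied to the family, signalling, vacuole and guanylate-binding lists, and 1 gene that meets it is not reported here; marker and target lists are given as sums or counts. The alternatives were 2 other scalings, 2 other filters, DESeq2 1.42.0, the replicate block, each library left out, Tgtp1 and Tgtp2 summed, and 2 other gene lengths. Totals of 25777676 to 36159499 counts set the precision. Figures were drawn with matplotlib 3.10.9.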

Additional observations from a re-analysis of the deposited data

How the results depend on the processing

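The members' values are a description, since they were chosen on this contrast. Under 13 alternatives their log2 fold changes ranged from -5.15 to -4.65 for Iigp1, -2.15 to -2.02 for Irgm1, -2.64 to -2.54 for Irgm2, -2.13 to -1.71 for Igtp and -1.67 to -1.30 for Gvin1, each end of these ranges coming from a fit without 1 library. The median of the members ran from -2.15 to -2.02 across the fits that each left out 1 library. Counts of genes called lower ran from 3374 to 3995 and higher from 3029 to 3998; with upper-quartile scaling 3998 were higher and 3422 lower, against 3490 and 3817. Same-numbered libraries had deviations that correlated at -0.12, -0.035 and -0.13 across genes. These values show no pairing by number and cannot exclude it. With the replicate block the members' median was -2.08, and 3177 genes were higher and 3563 lower. Among other listed genes, 501 of 529 pairs of gene and setting kept their direction and side of the threshold. Direction changed for Tyk2, at 0.02, 0.05, 0.01 and 0.01 with DESeq2 size factors, upper quartile scaling, a mean count of at least 50 and the DESeq2 Wald test and at -0.22 to 0.18 without single libraries, and for Atg3, at -0.01 to 0.09 without single libraries. The order of levels in NC libraries changed for 4 members with length counted outside other genes' spans and for 0 with whole gene spans. Both settings were chosen after seeing the data. The cause was not tested. Depth limits Igtp, with 14 to 134 reads per library.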
